A study of Mus musculus with 12 samples.

Results

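The histone genes of mouse myeloid progenitors were described through an ex vivo differentiation. They were taken from the table of gene expression by symbol, as all genes whose symbols begin with Hist1h, Hist2h, Hist3h, or Hist4h, called replication-dependent here, or with H2af, H3f3, or H1f, called replacement histones here. Of the 23309 genes listed, 81 were histone genes by this rule, 67 replication-dependent and 14 replacement. Of these, 68 had 1 FPKM or more in 2 or more of the 12 libraries, 58 replication-dependent and 10 replacement, out of 11516 genes that passed the same filter. FPKM counts fragments per length of transcript and size of library. The authors then normalized the values to synthetic ERCC RNAs added to each sample, so they no longer follow the size of a library alone. Levels set beside each other between genes are those of the poly(A) RNA that was sequenced, and reads may be split between similar genes.

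RNA-seq was performed on wild-type cells and on HMGN1-OE cells, which come from mice carrying human HMGN1, a nucleosome-binding protein, as a transgene. All cells were bone marrow progenitors on a C57BL/6 background that also carried a retrovirus encoding an ER-HoxB8 protein, by which they stay immature as long as estradiol (E2) is present. They were collected in E2 (0 h) and at 36 and 96 h after E2 was withdrawn in the presence of interleukin 3, with 2 libraries in each of the 6 groups. The libraries of a group are called A and B in the order of the table, which pairs no library with another. The cells are an immortalized model with 2 libraries a group, and the sources used here do not say whether the RNA-seq libraries came from separate animals, so p-values measure only the spread between these libraries.

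Replication-dependent histone genes sit in clusters, have no introns, and are transcribed mainly in S phase, when newly copied DNA has to be packed into nucleosomes. Their mRNAs end in a conserved stem-loop in place of a poly(A) tail. Replacement histone genes are transcribed throughout the cell cycle, usually contain introns, and give polyadenylated mRNAs, and their products are placed in chromatin outside of replication. The libraries were made from poly(A) RNA, so a replication-dependent gene was seen mainly through whatever part of its mRNA carried a poly(A) tail, and its FPKM is not the level of its stem-loop mRNA.

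The stem-loop, which the stem-loop binding protein holds, is what sets the 2 classes of mRNA apart. In the GENCODE vM21 transcripts, a 16-base stem-loop was found in 40 of the 58 replication-dependent genes and in 1 of the 10 replacement genes, H2afx, against 2.24% of 21877 protein-coding genes. The 40 genes shared few forms of it, and the commonest was in 23 genes. The following lines give 7 of them from 5′ to 3′ as DNA, with the stem-loop in capitals and 5 bases on each side in lower case.
Hist1h1c: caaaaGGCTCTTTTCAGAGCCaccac
Hist1h2bf: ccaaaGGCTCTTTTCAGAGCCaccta
Hist1h3c: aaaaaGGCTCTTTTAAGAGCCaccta
Hist1h4b: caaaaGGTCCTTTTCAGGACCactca
Hist1h4d: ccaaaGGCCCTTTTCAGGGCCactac
Hist2h2ac: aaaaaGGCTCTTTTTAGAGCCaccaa
H2afx: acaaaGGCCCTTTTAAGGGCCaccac
The annotated transcript ended within 100 bases of the stem-loop in 23 replication-dependent genes, and it ran on further in 17, by 840 bases in Hist1h1c and by 770 in Hist1h4d. The remaining 18 had a model without the stem-loop. The median of the mean FPKM was 9.88 in the 17 genes whose transcripts run on, 5.44 in the 23 that end near the stem-loop, and 3.63 in the 18 without it, with ranges that overlapped widely. In H2afx, which makes the H2A variant phosphorylated at DNA breaks, the stem-loop lay 822 bases before the end of the transcript. The hexamer AATAAA, the usual poly(A) signal, was in the last 50 bases of a transcript of 8 of the 58 replication-dependent and 8 of the 10 replacement genes.

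The 2 classes also differed in their promoters. Promoters, from 250 bases before to 50 after the start, were matched in RefSeq (GRCm38.p6) for 53 replication-dependent and 9 replacement genes. CCAAT, searched on both strands, was in 45 of the 53 and in 6 of the 9, against 41.1% of 27025 genes. It was in every matched H1, H2A, H2B, and H3 promoter of the replication-dependent class but in 3 of 11 H4 promoters. ATTTGCAT, the octamer of H2B promoters, was in 7 of 14 H2B and 5 of 15 H2A promoters and in none of the others of that class, against 1.97% of all genes. TATAAA was in 31 of the 53 and 1 of the 9, against 15.7% of all genes. ATTTGCAT was also in 1 of the 9 replacement promoters. H3f3b, printed below, is that promoter for both TATAAA and ATTTGCAT, so it is not typical of its class. A match is a description of letters and not a bound site. The next lines give the promoter of the most abundant H2B gene, of the one histone gene that was called higher at 96 h, of the most abundant H4 gene, and of an H3.3 gene, with CCAAT, ATTTGCAT, and TATAAA on either strand in capitals.
Hist1h2bf, chr13:23574158-23574457, minus strand: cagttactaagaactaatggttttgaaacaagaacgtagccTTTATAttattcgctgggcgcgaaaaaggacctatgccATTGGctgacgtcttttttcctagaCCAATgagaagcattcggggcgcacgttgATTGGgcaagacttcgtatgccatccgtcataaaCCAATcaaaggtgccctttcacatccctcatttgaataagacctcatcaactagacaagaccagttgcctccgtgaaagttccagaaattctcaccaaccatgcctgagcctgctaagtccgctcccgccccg
Hist2h2aa1, chr3:96245247-96245546, plus strand: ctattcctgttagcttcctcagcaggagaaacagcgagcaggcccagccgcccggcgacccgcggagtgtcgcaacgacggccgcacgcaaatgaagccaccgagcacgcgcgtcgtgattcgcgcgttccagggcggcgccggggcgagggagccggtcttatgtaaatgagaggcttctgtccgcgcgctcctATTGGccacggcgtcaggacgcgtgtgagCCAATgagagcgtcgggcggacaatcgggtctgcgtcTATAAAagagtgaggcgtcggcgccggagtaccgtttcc
Hist1h4i, chr13:22041313-22041612, minus strand: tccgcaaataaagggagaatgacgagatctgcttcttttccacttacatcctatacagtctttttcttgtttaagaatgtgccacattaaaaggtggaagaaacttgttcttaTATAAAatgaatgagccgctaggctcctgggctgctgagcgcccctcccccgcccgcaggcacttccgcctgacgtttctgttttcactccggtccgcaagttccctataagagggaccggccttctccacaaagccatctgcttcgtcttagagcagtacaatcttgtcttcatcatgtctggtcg
H3f3b, chr11:116024455-116024754, minus strand: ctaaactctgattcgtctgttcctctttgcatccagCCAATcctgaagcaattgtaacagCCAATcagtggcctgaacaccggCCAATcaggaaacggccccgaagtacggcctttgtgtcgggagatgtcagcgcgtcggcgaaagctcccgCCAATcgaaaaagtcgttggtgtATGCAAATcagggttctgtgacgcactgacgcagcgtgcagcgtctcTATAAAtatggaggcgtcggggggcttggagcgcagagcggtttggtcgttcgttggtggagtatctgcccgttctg
Of the 53 replication-dependent promoters, 45 lay on chromosome 13, 7 on chromosome 3, and 1 on chromosome 11. The matched replacement promoters were spread over 7 chromosomes. In 8 places an H2A and an H2B gene faced away from each other with starts 164 to 249 bases apart, and Hist1h2bf and Hist1h2ad, 174 bases apart, share most of the bases printed for the former.

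In this poly(A) RNA, replacement histones had the highest FPKM, which does not rank them against the stem-loop mRNAs. H2afz, which encodes H2A.Z, a variant found around start sites, had a mean of 1449 FPKM over the 12 libraries. H3f3a and H3f3b, the pair of genes for H3.3, had 881 and 584 FPKM, and H2afy, which encodes macroH2A1, a variant with a large C-terminal domain, had 462. The order of H2afz over H3f3a held in 11 libraries and that of H3f3a over H3f3b in all 12, while H3f3b exceeded H2afy in 8 of 12, so that these neighbors did not differ beyond their spread. Lower down were H2afx at 108 FPKM, H1f0, the linker histone of resting and differentiating cells, at 69.0, H2afj at 40.9, H2afv, the second H2A.Z gene, at 39.3, H1fx at 6.19, and H2afy2, for macroH2A2, at 0.881. H2afj exceeded H2afv in 6 of 12 libraries, and the 2 genes cannot be ranked.

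As measured in poly(A) RNA, no replication-dependent gene came near the leading replacement genes. The highest was Hist1h1c, for the linker histone H1.2, with a mean of 33.3 FPKM, and the next 11 were H2B and H4 genes. Among H2B genes, Hist1h2bf had 26.3, Hist1h2bc 23.3, Hist1h2bh 22.7, Hist1h2bg 21.1, Hist1h2bl 18.9, Hist1h2bk 16.4, and Hist1h2bj 14.3 FPKM. Among H4 genes, Hist1h4i had 14.3, Hist1h4b 13.6, Hist1h4a 13.4, and Hist1h4j 12.9 FPKM. By family, the median of the mean FPKM was 1.36 for 4 H1 genes, 3.20 for 16 H2A genes, 8.25 for 16 H2B genes, 8.08 for 11 H3 genes, and 12.8 for 11 H4 genes. The other 3 H1 genes, Hist1h1b, Hist1h1d, and Hist1h1e, lay between 0.828 and 1.77 FPKM. In the 8 divergent pairs the H2B gene had the higher mean in 6, in all 12 libraries each time. The exceptions were Hist1h2bp, at 2.09 against 3.75 FPKM for Hist1h2an, and Hist1h2bq, at 3.52 against 4.26 for Hist1h2ao.

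**Figure D1:**
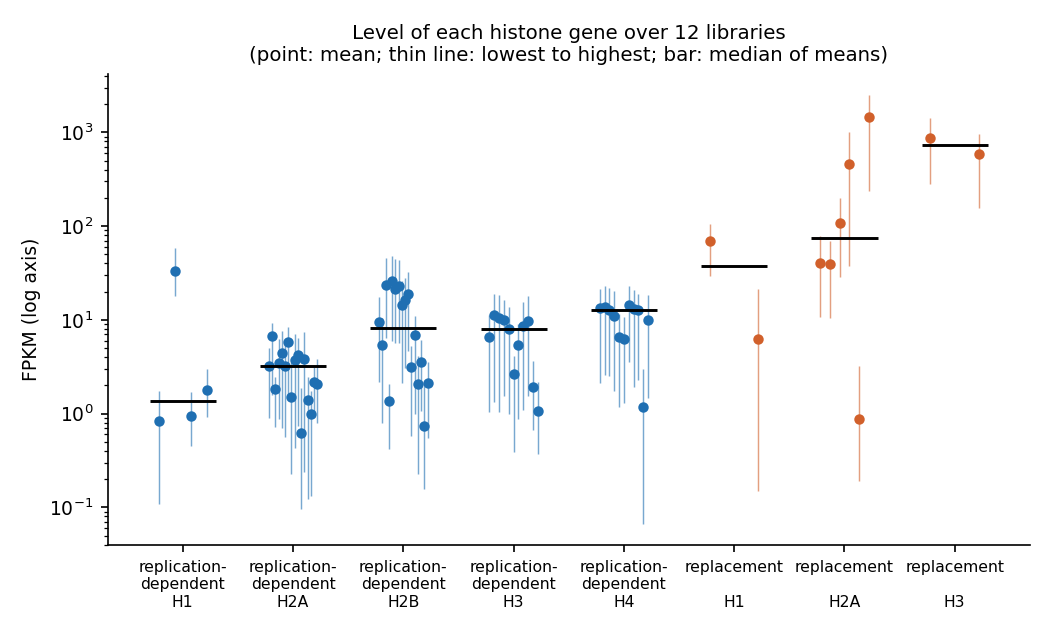
FPKM (log axis) of the 68 histone genes by class and family; each point is the mean of 12 libraries, the thin line runs from the lowest to the highest library, and the black bar is the median of the means in the family. In this poly(A) RNA, replication-dependent genes reach at most 33.3 FPKM on average, and H2afz, H3f3a, H3f3b, and H2afy lie above all of them.

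Copies of these genes resemble each other, and reads may be split between them. A 50-base window of the transcript occurred in another gene for a median of 57.5% of windows in the 58 replication-dependent genes, and for more than 50% in 32 of them. The median was 9.03% in the replacement genes, and H2afz, at 63.8%, was the 1 above 50%. All windows of Hist2h2aa2 were in Hist2h2aa1, and 89.2% of those of Hist2h2aa1 were in Hist2h2aa2, so their separate values are uncertain. The 13 genes that did not pass the filter were H1fnt, H1foo, H2afb1, H2afy3, Hist1h1a, Hist1h1t, Hist1h2aa, Hist1h2ac, Hist2h3c1, Hist2h4, Hist3h2ba, Hist3h2bb-ps, and Hist4h4, with means of at most 0.681 FPKM. Just outside the filter lay Hist1h2ac, with 1.11 FPKM in its highest library and 0.951 in the next, and just inside it lay Hist1h2ap, with 1.87, 1.38, and 1.01 in 3 libraries.

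Most histone genes fell between 36 and 96 h, and so did most genes of the cell. Values were normalized by the authors to ERCC RNAs added to the RNA of a counted number of cells, so that a difference in the amount of RNA recovered enters them. RNA per cell was not measured in these files. The median FPKM of the 11516 genes was 14.1 to 30.3 at 0 and 36 h and 3.06 to 7.32 at 96 h. In bulk RNA, less RNA per cell and fewer cells of a type cannot be told apart, nor can a lower yield of RNA. Wild-type library B at 96 h had the lowest median. The summed FPKM of 8 progenitor markers such as Kit and Mpo went from 5676 to 22177 at 0 and 36 h to 124 to 2336 at 96 h, and that of 13 maturation markers was 364 to 4323 before and 67376 to 174284 at 96 h. S100a8 and S100a9 gave 72.0% to 90.2% of the latter sum, and S100a9 was at 0.0511 FPKM in wild-type library A at 96 h against 26546 to 73461 in the other 3. Without S100a9 the sum at 96 h was 40830 to 100824. Of the 13 markers, 8 were called higher from 36 to 96 h in wild-type cells and 11 in HMGN1-OE cells, and Mmp8 was called in neither. Among markers of other cells, the 2 eosinophil genes reached 982 to 2124 FPKM in wild-type and 200 to 497 in HMGN1-OE libraries at 96 h from at most 52.4 before. At 96 h mast cell or basophil markers summed to 118 to 512, erythroid markers to 1.27 to 9.80, megakaryocyte markers to 1.86 to 7.55, B cell markers to 0.402 to 2.41, T cell markers to 3.69 to 10.4, and stromal markers to 0.767 to 1.34 FPKM, and their part in the histone values was not tested. Mouse Hmgn1 fell from 85.7 to 201 FPKM at 0 and 36 h to 4.71 to 20.7 at 96 h in both genotypes, and the human transgene was not measured.

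Summed over the 58 replication-dependent genes, FPKM was 394 and 740.3 in wild-type libraries at 0 h, 568 and 641 at 36 h, and 339 and 111 at 96 h. In HMGN1-OE libraries it was 715 and 503 at 0 h, 441 and 474 at 36 h, and 239 and 280.4 at 96 h. The 96 h libraries lay below all others. The 10 replacement genes summed to 3060.4 and 6018 FPKM at 0 h, 5403 and 6276 at 36 h, and 1936 and 794 at 96 h in wild-type cells. In HMGN1-OE cells they summed to 5062 and 3362, 3851 and 4106, and 1594 and 2219.7. The replication-dependent share of histone FPKM does not depend on a single scale factor of a library. The authors' normalization by loess can differ with the level of a gene, and its part in the share was not tested. At 0 h the share was 11.4% and 11.0% in wild-type against 12.4% and 13.0% in HMGN1-OE libraries. At 36 h the share was 9.51% and 9.27% in wild-type cells and 10.3% and 10.4% in HMGN1-OE cells, and at 96 h 14.9% and 12.3%, and 13.0% and 11.2%. The share was thus lowest at 36 h in both genotypes. The HMGN1-OE libraries lay above the wild-type ones at 0 and 36 h and overlapped them at 96 h. The smallest p an exact permutation of 2 libraries against 2 allows is 0.333.

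**Figure D2:**
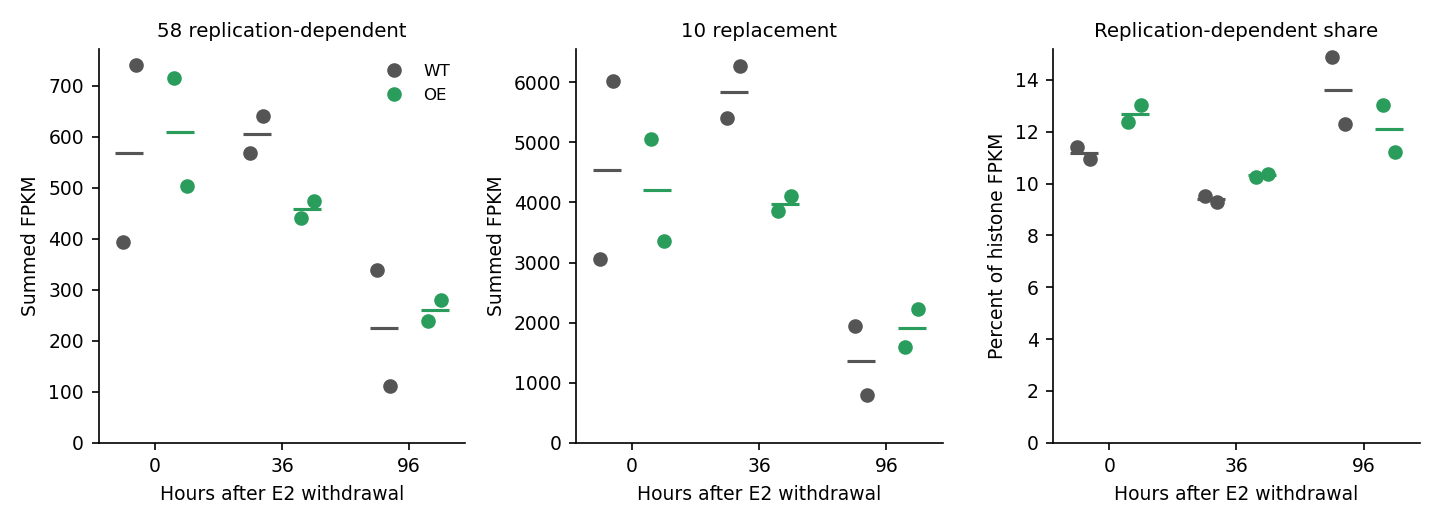
Summed FPKM of the 58 replication-dependent genes and of the 10 replacement genes, and the percent of histone FPKM from the replication-dependent genes, against hours after E2 withdrawal; each point is 1 library, bars are means of 2 libraries, and WT and OE are wild-type and HMGN1-OE. Both sums are lowest at 96 h, while the replication-dependent share is lowest at 36 h, between 9.27% and 10.4%.

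Between 36 and 96 h in wild-type cells, 50 of the 68 histone genes were called lower and 1 higher at an adjusted p under 0.05 (limma on log2(FPKM + 1), Benjamini-Hochberg over 11516 genes). By class these were 42 lower and 1 higher of 58 replication-dependent genes, and 8 lower of 10 replacement genes. Over all genes 89.5% were called, and 86.3% were called lower, so the histone share of 73.5% called lower was not above the background. The median log2 fold change was −1.30 in the replication-dependent class, −1.90 in the replacement class, and −2.21 over all genes. Without wild-type library B at 96 h, 13 histone genes were called, 12 lower and 1 higher, in a fit that takes the lone library left in that group to vary like those of the other groups, and 79.9% of all genes were called in it, 76.6% lower. Relative to the library, the direction turned. With each library centred on its median, a shift of 2.32 on the log2 scale in this comparison, 55 histone genes were called higher and 1, H2afy, lower, where 38.2% of all genes were called higher. Centring adds the same shift to low genes, whose falls are understated on the log2(FPKM + 1) scale, so such genes are favored as higher. Other ways of scaling the libraries called fewer histone genes in both genotypes, as the last section gives.

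In HMGN1-OE cells, 18 of the 68 histone genes were called lower and none higher by limma, 15 replication-dependent and 3 replacement, where 69% of all genes were called and 64.9% were called lower. The median log2 fold change was −0.61 in the replication-dependent class, −0.82 in the replacement class, and −1.33 over all genes. Leaving out 1 of the 4 libraries compared left 3 to 5 histone genes called, where 33.7% to 56% of all genes were. H1fx and H2afy were called in each of those fits, which leave 1 library in a group. The 18 became 2 with no filter, 6 with gene-wise variances, and 52 with only the groups compared, while 27.8%, 58.2%, and 89% of all genes were called. With centred libraries, a shift of 1.34, 37 histone genes were called higher and 1, H2afy, lower, where 28.6% of all genes were called higher.

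**Figure D3:**
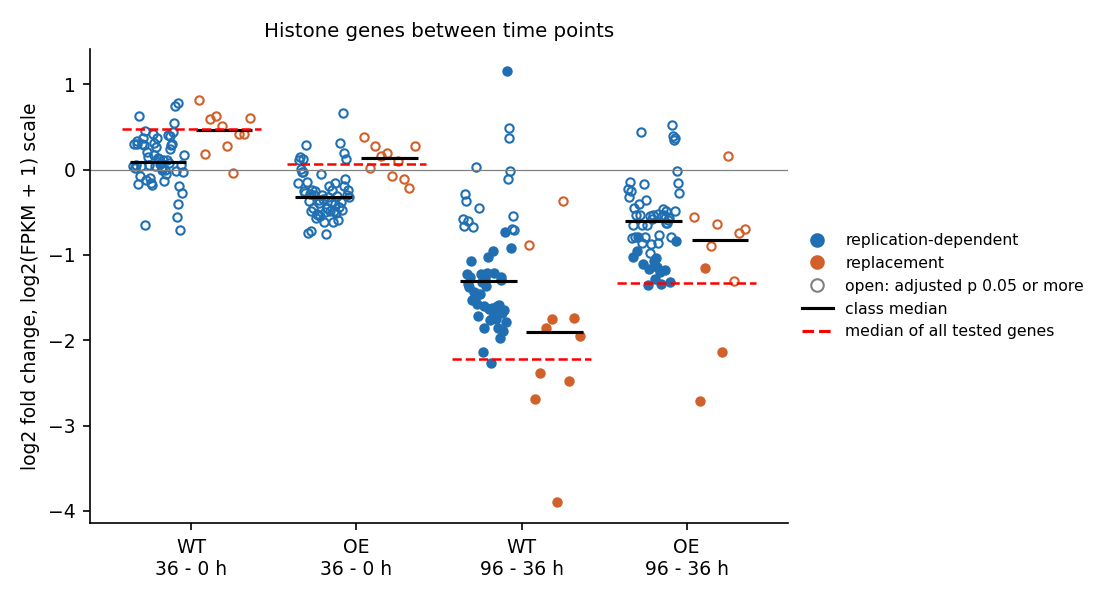
Change of each histone gene, as log2 fold change of FPKM + 1, in the 4 comparisons over time, where WT stands for wild-type and OE for HMGN1-OE cells; filled points have an adjusted p under 0.05 in limma, black bars are class medians, and red dashed lines are the median of all 11516 genes. At 96 h both class medians lie above the red line, at −1.30 and −1.90 against −2.21 in wild-type cells.

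On the log2(FPKM + 1) scale H2afy had the largest fall of the 68 in wild-type cells. Its levels were 495 and 1016 FPKM at 0 h, 764 and 973 at 36 h, and 86.5 and 37.7 at 96 h in wild-type cells. In HMGN1-OE cells they were 594 and 418, 481 and 465, and 86.2 and 132. The 96 h libraries lay apart from all the others in both genotypes. From 36 to 96 h the log2 fold change was −3.89 (SE 0.60, adjusted p = 5.36e-10, limma) in wild-type cells and −2.14 (SE 0.60, adjusted p = 0.00111) in HMGN1-OE cells, and with centred libraries it was still −1.57 and −0.80. The mean level at 96 h was 7.15% of that at 36 h in wild-type cells and 23.0% in HMGN1-OE cells. As a percent of the 36 h level, H1fx fell further than H2afy, to 2.16% and 3.75%.

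MacroH2A, as H2afy and H2afy2 together, also made up a smaller part of H2A transcripts in HMGN1-OE cells before 96 h. Its share of the FPKM of all 22 H2A genes was 25.4% and 28.1% at 0 h and 24.3% and 25.1% at 36 h in wild-type libraries. In HMGN1-OE libraries it was 19.5% and 19.6% at 0 h and 20.7% and 18.7% at 36 h. All 4 wild-type libraries lay above all 4 HMGN1-OE libraries. At 96 h the shares were 9.22% and 11.2% in wild-type and 11.3% and 11.7% in HMGN1-OE libraries. H2afy itself passed no genotype test, with log2 differences of −0.51 at 0 h, −0.86 at 36 h, and 0.89 at 96 h and adjusted p = 0.496 at the lowest (limma). H2A.Z, as H2afz and H2afv together, took 64.2% to 66.4% of H2A FPKM in wild-type and 70.0% to 72.8% in HMGN1-OE libraries at 0 and 36 h, and 71.7% to 75.8% over the 4 libraries at 96 h. The macroH2A and H2A.Z shares are parts of the same total and make up most of it. A lower share of one thus goes with a higher share of the other, and they are not separate differences. These shares were described after their values were seen and carry no test. Markers of cell state differed between the genotypes as well. At 0 h 2 of 8 progenitor markers were called lower in HMGN1-OE cells by limma, Mpo at 540 and 642 against 2107 and 4406 FPKM and Elane, and 1 of 13 maturation markers, Ly6c2. At 36 h none of the 8 and 5 of the 13 were called lower. Of the other markers, 1 erythroid gene, Hba-a1, and 1 mast cell or basophil gene, Prss34, were called higher at 0 h and the eosinophil gene Prg2 lower at 36 h. At 96 h 3 of the 8 progenitor markers were called higher, 1 of the 13 maturation markers higher and 1 lower, and both eosinophil genes lower. The summed progenitor markers were 8169 and 16392 FPKM in wild-type against 8196 and 5676 in HMGN1-OE libraries at 0 h, and 22177 and 19080 against 15885 and 12618 at 36 h. The part of these markers in the macroH2A share was not tested.

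The other replacement histones had smaller log2 fold changes in wild-type cells. H2afz had 2030.2 and 2504 FPKM at 36 h and 687 and 237 at 96 h in wild-type cells, a log2 fold change of −2.48 (SE 0.62, adjusted p = 1.09e-04, limma). H1fx, a linker histone, fell from 11.0 and 3.61 to 0.166 and 0.151 FPKM, close to the most frequent value of a library, 0.0967 to 0.105. H2afj (−2.38), H3f3b (−1.95), H2afv (−1.85), H2afx (−1.75), and H3f3a (−1.74 on the log2 scale) were called lower in wild-type cells as well. Of these, H2afj was called lower in HMGN1-OE cells (−1.15, adjusted p = 0.0467, limma), while H2afv, H2afx, H3f3a, and H3f3b had −0.89 to −0.64 there and were not called. H2afz was not called in HMGN1-OE cells either, with 1583 and 1764 FPKM at 36 h and 547 and 834 at 96 h. With centred libraries H3f3a stood at 0.58 in wild-type cells and 0.59 in HMGN1-OE cells, and H2afz at −0.16 and 0.04.

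H1f0 was among the least reduced. It had 88.5 and 99.3 FPKM at 36 h and 84.7 and 29.6 at 96 h in wild-type cells, and 64.3 and 99.6, then 44.0 and 66.1, in HMGN1-OE cells. The groups lay apart in wild-type cells by the narrow gap of 88.5 to 84.7 and overlapped in HMGN1-OE cells. Neither change was called (log2 −0.89 and −0.56, adjusted p = 0.119 and 0.352, limma). With centred libraries H1f0 was 1.44 higher in wild-type cells (adjusted p = 0.00467, limma). Hist1h1c followed the same course, with 43.9 and 43.8 FPKM at 36 h and 41.3 and 17.9 at 96 h in wild-type cells. H1f0 and Hist1h1c gave 48.9% to 69.7% and 19.1% to 38.7% of the FPKM of the 6 H1 genes over the 12 libraries.

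Of the replication-dependent genes called lower in wild-type cells, Hist1h3c, Hist1h2bj, and Hist1h4d fell the furthest. Hist1h3c, an H3 gene, went from 12.2 and 17.8 FPKM at 36 h to 4.29 and 1.04 at 96 h, and fell by 2.26 on the log2 scale (SE 0.47, adjusted p = 3.58e-06, limma). Hist1h2bj, an H2B gene, went from 19.6 and 25.7 to 8.13 and 2.13 FPKM (log2 −2.13), and Hist1h4d, an H4 gene, from 18.8 and 13.5 to 5.83 and 1.74 (log2 −1.97). With centred libraries they stood at 0.06, 0.19, and 0.36, that is, they moved about as the library did. In HMGN1-OE cells the largest falls among those called were those of Hist1h2bj (−1.35), Hist1h3i (−1.34), and Hist1h4m (−1.31 on the log2 scale).

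The abundant H2B and H4 genes fell together. In wild-type cells all 7 of the H2B genes among the 12 most abundant were called lower, from −1.22 for Hist1h2bg to −2.13 for Hist1h2bj, and so were the 4 H4 genes, from −1.59 for Hist1h4a to −1.89 for Hist1h4j. As group means, Hist1h2bg was at 45.9% and Hist1h2bj at 22.7% of the 36 h level. Without library B at 96 h they were at 68.5% and 35.9%, so the size of these falls rests partly on that library. Hist1h1c was not called (−0.67, adjusted p = 0.223, limma). In HMGN1-OE cells Hist1h2bj, Hist1h2bk (−1.16), and Hist1h2bc (−1.10) were called among the 12. With 86.3% and 64.9% of all genes called lower, 11 of 12 in wild-type cells was near the background and 3 of 12 in HMGN1-OE cells was below it. As an example, Hist1h2bf had 25.8 and 36.1 FPKM at 36 h and 17.9 and 5.94 at 96 h in wild-type cells, and 26.5 and 30.02, then 12.6 and 20.1, in HMGN1-OE cells. The 96 h libraries lay below the 36 h ones in both genotypes.

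Taken as group means with no pseudocount, the median replication-dependent gene at 96 h was at 35.8% of its 36 h level in wild-type cells and at 58.3% in HMGN1-OE ones. The median replacement gene was at 29.0% and 56.5%, and the median of all 11516 genes at 16.7% and 32.9%. Without library B the wild-type medians were 54.1%, 41.2%, and 22.8%. By family, wild-type medians were 68.6% for H1, 39.2% for H2A, 35.2% for H2B, 31.5% for H3, and 30.4% for H4 genes. Without library B they were 96.7%, 55.6%, 52.8%, 53.2%, and 50.5%. H1 kept the most and H4 the least both ways, while H2B and H3 changed places, and in HMGN1-OE cells H1 was at 76.8% and H3 the lowest at 43.5%. The difference of the class medians on the log2(FPKM + 1) scale was 0.60 in wild-type cells as a difference of median fold changes, and a pseudocount of 0.1 reduced it to 0.23. Taken within each library, the median level of the replication-dependent class minus that of the replacement class did not move in the same direction. It was −3.86 at 36 h and −3.94 at 96 h in wild-type cells on that scale, a change smaller than the spread between libraries of a group (SD 0.29).

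The 4 H2A genes of the Hist2 cluster were at higher percents of their 36 h level than the median Hist1 H2A gene. Hist2h2aa1, Hist2h2aa2, Hist2h2ab, and Hist2h2ac together had 11.4 and 4.38 FPKM at 36 h and 13.6 and 9.98 at 96 h in wild-type cells, and 4.79 and 7.42, then 7.96 and 10.8, in HMGN1-OE cells. The groups overlapped in wild-type cells and lay apart in HMGN1-OE cells. Of all replication-dependent H2A FPKM these 4 genes gave 8.01% to 18.6% in the 8 libraries at 0 and 36 h, 33.2% and 50.8% in wild-type libraries at 96 h, and 24.4% and 29.3% in HMGN1-OE libraries at 96 h. The 4 libraries at 96 h lay above all the earlier ones. The mean levels at 96 h were 89.6% to 192% of those at 36 h in wild-type cells and 142% to 161% in HMGN1-OE cells, against a median of 32.9% and 49.1% in the 11 Hist1 H2A genes. One Hist1 H2A gene, Hist1h2ap, was at 119% and 238%, with at most 0.908 FPKM at 36 or 96 h, and at 56.6% in wild-type cells without library B at 96 h. Without that library the Hist1 H2A median was 52.4% in wild-type cells and that of the 4 Hist2 genes 178%. With centred libraries each of the 4 genes was called higher in both genotypes by limma, as were 55 and 37 of the 68 histone genes and 38.2% and 28.6% of all genes. With libraries scaled to one median FPKM, all 4 were called higher in wild-type cells and Hist2h2ac alone of the 4 in HMGN1-OE cells, where 31.5% and 27.4% of all genes were.

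Hist2h2aa1 was the 1 histone gene called higher at 96 h. It had 5.75 and 0.241 FPKM at 36 h and 7.37 and 3.99 at 96 h in wild-type cells, with groups that overlapped (log2 fold change 1.16, SE 0.41, adjusted p = 0.00577, limma). The call was lost without library B at 36 h (−0.06) and without library A at 96 h (0.79, adjusted p = 0.108). In sum with Hist2h2aa2 it had 7.57 and 2.69 FPKM at 36 h and 8.97 and 6.21 at 96 h. Of the other Hist2 genes, Hist2h2be, an H2B gene whose transcript carries AATAAA and shares no window with another gene, was at 37.5% of its 36 h level in wild-type cells and at 39.7% in HMGN1-OE cells. Hist2h2bb, also an H2B gene, was at 99.4% and 44.2%, and the H3 genes Hist2h3b and Hist2h3c2 were at 47.3% and 94.9%, and at 50.3% and 77.5%. These 3 genes had means of at most 1.91 FPKM, and without library B at 96 h Hist2h2bb was at 151% and Hist2h3c2 at 76.0% in wild-type cells.

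**Figure D4:**
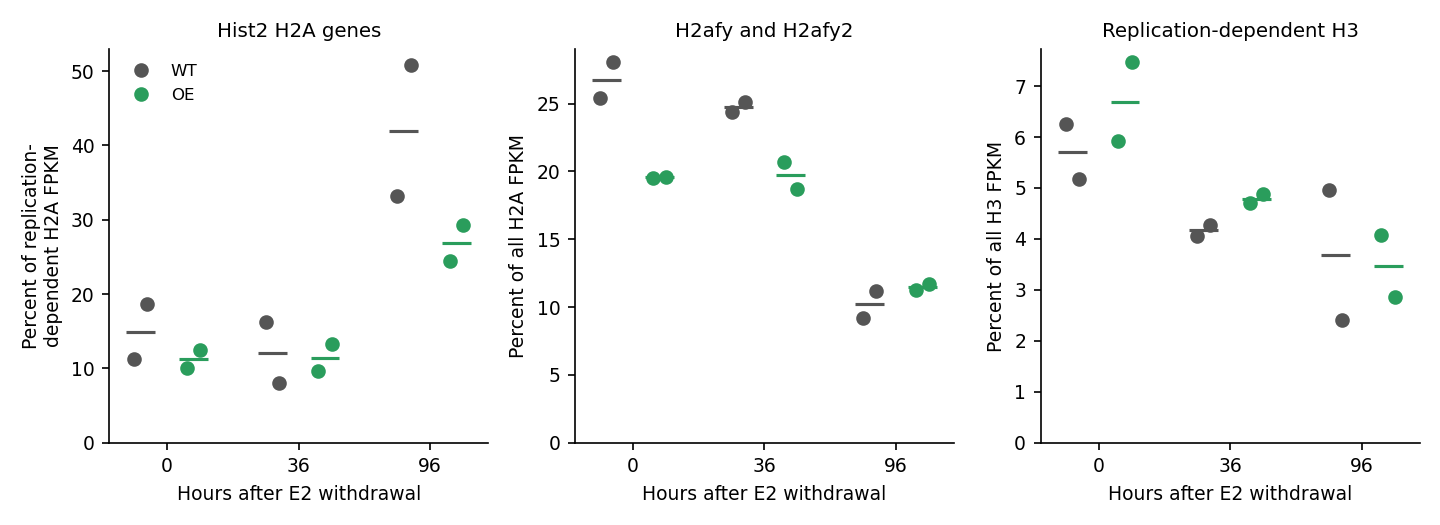
Percent of replication-dependent H2A FPKM from the 4 Hist2 H2A genes, percent of all H2A FPKM from H2afy and H2afy2, and percent of all H3 FPKM from replication-dependent H3 genes, against hours after E2 withdrawal; each point is 1 library, bars are means of 2 libraries, and WT and OE are wild-type and HMGN1-OE. The Hist2 share is 24.4% to 50.8% at 96 h and at most 18.6% before, and the H2afy share at 0 and 36 h is 24.3% or more in WT and 20.7% or less in OE.

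Among H3 genes, the replication-dependent ones gave a small part of the FPKM beside H3.3 in this poly(A) RNA, which leaves out most stem-loop mRNA. Their share was 6.26% and 5.17% at 0 h, 4.06% and 4.27% at 36 h, and 4.97% and 2.41% at 96 h in wild-type libraries. In HMGN1-OE libraries it was 5.91% and 7.47%, 4.70% and 4.88%, and 4.08% and 2.87%. The share at 36 h lay below that at 0 h in both genotypes, and at 96 h the libraries scattered.

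Between 0 and 36 h no histone gene was called in either genotype by limma, where 0.617% of all genes were called in wild-type cells and 1.8% in HMGN1-OE cells. At an unadjusted p under 0.05 there were 4 and 2 histone genes, against 3.28% and 5.02% of all genes. In HMGN1-OE cells 49 of 58 replication-dependent genes were lower at 36 h and their median change was −0.32 on the log2 scale, while 4397 of 11516 genes were lower and their median was 0.06. In 29 of the 58 both libraries at 36 h lay below both at 0 h, where this held for 9.47% of all genes. In wild-type cells 40 of the 58 were higher, with a median of 0.09, and the median of all genes was 0.47. Relative to the median gene, the replication-dependent class was thus lower at 36 h by 0.38 on the log2 scale in both genotypes. The replacement class itself had medians of 0.47 and 0.13 in wild-type and HMGN1-OE cells and stayed near the median gene. The median of all genes minus that of the replacement class was 0.006 and −0.069. With centred libraries 54 and 50 of the 58 were lower at 36 h in the wild-type and HMGN1-OE cultures, and none was called. The H4 gene Hist1h4k, for example, had 18.9 and 16.7 FPKM at 0 h and 12.4 and 13.2 at 36 h in HMGN1-OE cells, and 9.39 and 16.1, then 18.8 and 18.04, in wild-type cells. It was chosen after its values were seen.

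The comparison of HMGN1-OE with wild-type cells asks whether the transgene changed histone transcripts. No histone gene was called at 0, 36, or 96 h by limma, where 1.36%, 1.26%, and 0.669% of all genes were called, and 3, 0, and 0 histone genes had an unadjusted p under 0.05, against 3.97%, 5.15%, and 2.73% of all genes. The 3 at 0 h were Hist1h4m, Hist1h2ak, and H2afy2. Hist1h4m, an H4 gene, had 0.693 and 0.174 FPKM in the wild-type libraries, against 1.97 and 1.72 in the HMGN1-OE ones (log2 difference 1.01, SE 0.34, adjusted p = 0.156, limma). Hist1h2ak, an H2A gene, had 0.674 and 1.72 in wild-type cells and 3.51 and 2.97 in HMGN1-OE cells (0.99, adjusted p = 0.240, limma). Both lay higher without overlap, and both share most of their sequence windows with other histone genes, 89.8% and 57.0%. H2afy2 had 0.261 and 3.20 against 0.533 and 0.190 FPKM, with overlap, and reached 1 FPKM in 2 wild-type libraries alone, through which it passed the filter (log2 −0.77, adjusted p = 0.637, limma).

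At 0 h the medians were 0.14 for replication-dependent genes, −0.14 for replacement genes, and −0.12 over all genes, and 43 of the 58 replication-dependent genes were higher in HMGN1-OE cells against 2575 of 11516. The libraries did not overlap in 11 of the 68, all replication-dependent, 8 higher and 3 lower, where this held for 7.93% of all genes. At 36 h the medians were −0.30, −0.54, and −0.54, and libraries did not overlap in 43 of the 68, 41 of them lower, where 85.6% of all genes did not overlap. At 96 h the medians were 0.26, 0.46, and 0.36, and 3 of the 68 did not overlap against 13.2% of all genes. Centring raised the differences by 0.13 at 0 h and 0.58 at 36 h and lowered them by 0.40 at 96 h, and then 49, 52, and 21 of the 58 replication-dependent genes were higher in HMGN1-OE cells, with medians of 0.28, 0.28, and −0.14 and none called. As deposited, the difference of the class medians of these log2 differences was 0.28, 0.25, and −0.20. With 1 library left out the value at 0 h ranged from 0.049 to 0.57. Taken within each library, the difference of the class median levels was −3.51 in wild-type and −3.30 in HMGN1-OE libraries at 0 h, −3.86 and −3.80 at 36 h, and −3.94 and −3.97 at 96 h, and the genotypes differed by less than the spread between libraries of a group (SD 0.29) each time. Whether the genotypes differed in their change over time was tested as an interaction, and no histone gene was called from 0 to 36 h or from 36 to 96 h by limma (0.504% and 0.547% of all genes), with 1 and 2 at an unadjusted p under 0.05, against 1.91% and 4.52% of all genes.

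**Figure D5:**
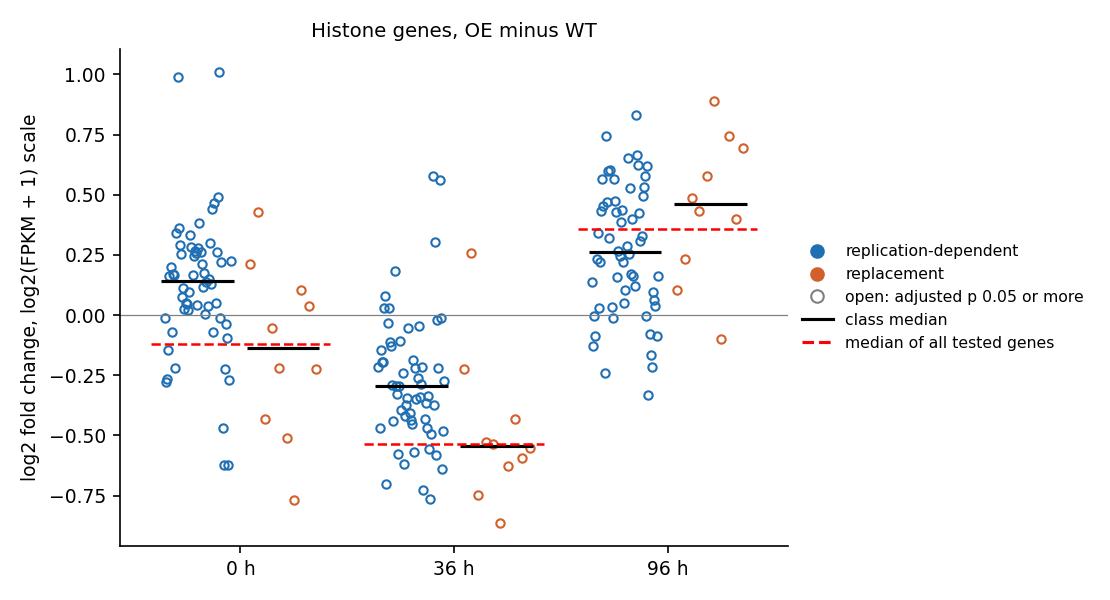
Log2 difference, HMGN1-OE minus wild-type, of each histone gene at 0, 36, and 96 h; points, bars, and the red dashed line as in the plot of changes over time. No point is filled at any time, and the class medians differ by 0.28, 0.25, and −0.20 at the 3 times, the first of them between 0.049 and 0.57 with 1 library left out.

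Genes that make, carry, and use histones were given as lists. All 16 S phase genes that passed the filter were called lower from 36 to 96 h in wild-type cells and 13 in HMGN1-OE cells, with median log2 fold changes of −2.91 and −1.61, where 86.3% and 64.9% of all genes were called lower. In wild-type cells Mcm6 (−3.67) and Mcm7 (−3.41), of the replicative helicase, and Gins2 (−3.53), of its activator, fell the most. Of 15 genes of histone mRNA processing, 13 and 11 were called lower in the 2 genotypes (medians −2.62 and −1.58), about the share of all genes in wild-type cells, with Cstf2 (−3.36), Cpsf3 (−3.20), and Ncbp1 (−3.14), for 3′ end cleavage and cap binding, in the lead. Slbp, which encodes the stem-loop binding protein, had 146 and 153 FPKM at 36 h and 52.3 and 16.3 at 96 h in wild-type cells.

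Histone chaperones, which escort histones to chromatin, moved in the same direction. All 10 replication-coupled chaperones were called lower in wild-type cells and 9 in HMGN1-OE cells (medians −3.29 and −2.01), led by Rbbp7 (−3.97), Ipo4 (−3.49), and Nasp (−3.47). All 11 replacement chaperones and 5 of them in HMGN1-OE cells were called lower (medians −2.18 and −1.23), led by Anp32e (−3.71), Hira (−3.21), and Vps72 (−2.89), which act on H2A.Z or H3.3. All 5 general chaperones were called lower in both (medians −3.94 and −2.52), led by Npm1 (−5.61), Set (−4.68), and Nap1l1 (−3.94). Over all genes 86.3% and 64.9% were called lower, with medians of −2.21 and −1.33, so the 5 of 11 replacement chaperones called in HMGN1-OE cells lay below the background. With centred libraries the list medians in wild-type cells were −0.58 for S phase, −0.30 for mRNA processing, −0.97, 0.14, and −1.62 for the 3 chaperone lists, where the replication-dependent histones stood at 1.02. No gene of these 5 lists was called in a genotype comparison by limma.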

How the data were processed

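Polyadenylated RNA of 12 libraries was measured by RNA-seq after Trizol extraction and TruSeq v2 preparation. The authors added ERCC spike-in RNAs to RNA from counted cells, and they normalized the values by loess on the ERCC RNAs. The deposited FPKM are these normalized values, 1 per gene and library. The submitters' processing notes name HISAT, Cufflinks 2.0.0, and mm9, whereas the study's methods name Bowtie and RPKM, so which of them made the table is not settled here. The strand setting and the treatment of reads that fit several genes are not given in the sources used here. The files give no read counts, so the depth of a library is unknown and no counting interval is given.

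Groups were taken from genotype and time in the column names. Genes that had 1 FPKM or more in 2 or more of the 12 libraries were kept, and log2(FPKM + 1) was fitted with limma 3.58.1 in R 4.3.3 (lmFit, eBayes with trend), with 6 group means, and two-sided p-values adjusted by Benjamini-Hochberg over 11516 genes. Fold changes are on this scale and understate changes of low genes. limma's prior degrees of freedom were infinite, so each variance came from the trend over expression. The members and lists were chosen with earlier results of these data known. Genes named are all 10 replacement genes past the filter, the 12 replication-dependent genes of highest mean FPKM, those called in a genotype or interaction test, the 3 largest rises and falls called in each time comparison, and from each list the 3 with the largest change from 36 to 96 h in wild-type cells. Other genes named were singled out after their values were seen. Marker lists were given as sums. Alternatives were other pseudocounts and filters, centring, quantile normalization, other variance models, the groups compared alone, each library left out, and, added after seeing the data, scaling to one median FPKM with a pseudocount of 0.1. Stem-loops, poly(A) signals, and shared windows were read from GENCODE vM21 transcripts, and promoters from RefSeq GRCm38.p6. No coordinate of the authors' build was used. Scripts ran in Python 3.11.15 with pandas 2.3.3, numpy 2.4.6, and matplotlib 3.10.9.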

Additional observations from a re-analysis of the deposited data

How the results depend on the processing

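No paired analysis was possible because the columns carry no replicate number of the sample titles, so that no column could be matched to a numbered sample. Of 331 values recomputed under an alternative, 306 stayed within 1.5 times the reported count or moved by less than the SD between libraries of the difference of class median levels. Another 6 counts reversed direction, 7 fell and 7 rose by more than that, and 5 differences of class medians moved further. The 306 include differences of class medians that could not move, because the library left out belonged to a group not compared. They also include counts of 0 that stayed at 0, so the 306 do not measure how stable the results are. The histone genes called between 36 and 96 h turned from lower to higher when libraries were put on a common scale. In wild-type cells 56 were called with centred libraries, 32 with quantile normalization, and 35 with libraries scaled to one median and a pseudocount of 0.1, and in HMGN1-OE cells 38, 27, and 25, nearly all higher. Over all genes 71.9%, 70.2%, and 70.4% were called in wild-type cells and 61%, 64.7%, and 65.4% in HMGN1-OE cells, with 27.4% to 38.2% higher. In HMGN1-OE cells the 18 calls became 2 with no filter, 6 with gene-wise variances, and 52 with only the groups compared, and the cause was not tested (27.8%, 58.2%, and 89% of all genes). With only the groups compared, 2 genes, Hist1h2ap and Hist2h2aa2, were called between 0 and 36 h in HMGN1-OE cells. Hist1h2ap reached 1 FPKM in 3 libraries at 0 h alone, so the filter favored its fall. Leaving out each library in turn, which assumes that the lone library left varies like the other groups, gave 13 to 57 calls between 36 and 96 h in wild-type and 3 to 23 in HMGN1-OE cells, where 79.9% to 91.1% and 33.7% to 74.5% of all genes were called. The fewest calls came without wild-type library B at 96 h and without library B at 36 h or A at 96 h of HMGN1-OE. It gave 0 to 2 calls between 0 and 36 h in wild-type cells, namely Hist1h2ap and Hist2h2aa2 without library B at 0 h and Hist2h2aa1 without library A at 36 h. Between genotypes at 0 h it gave 0 to 2 calls, namely H2afy2 and Hist1h4m without wild-type library A, Hist1h2ak without wild-type library B, and H1fx without HMGN1-OE library B. That of H2afy2, which passed the filter through 2 wild-type libraries, rests on wild-type library B. The difference of class medians between genotypes at 0 h ranged from 0.049 to 0.57, the highest without HMGN1-OE library A. From 36 to 96 h in wild-type cells it was 0.23 with a pseudocount of 0.1, −0.030 with quantile normalization, and 0.16 with scaled libraries, and in HMGN1-OE cells it was −0.13 with quantile normalization. The files hold no depth, so the spread of low genes was seen only between 2 libraries.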
